A study of Caenorhabditis elegans with 2 samples.

Results

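The 10 genes described here, mom-1, mom-2, mom-4, mom-5, apr-1, lit-1, wrm-1, sys-1, bar-1 and pop-1, belong to the Wnt and MAP kinase signalling that gives sister cells of the Caenorhabditis elegans embryo different fates. They were chosen by name, from 19973 protein-coding genes on the nuclear chromosomes, and their ZTF-11 peaks were read from deposited ChIP-seq peak lists. ZTF-11 is a zinc finger transcription factor of the Myt1 family. The material was whole embryos of mixed stage and both sexes from strain OP236, which has the genotype unc-119(ed3) III; wgIs236, so that eGFP-tagged ZTF-11 was made from a transgene, in animals that carry the unc-119 allele. The promoter that drives it is not given in the sources used, and the libraries named in the labels as possible controls were not analysed here. There was 1 group of 2 libraries, numbered as biological replicates, and no second condition. Whole embryos mix all cell types, so a peak does not say in which cells it was bound.

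In the Wnt asymmetry pathway a mother cell divides into daughters with unequal nuclear levels of POP-1, a TCF family DNA-binding protein, and of SYS-1, the beta-catenin that acts as its coactivator. On the signalled side the kinase LIT-1, bound to the beta-catenin WRM-1, phosphorylates POP-1 and promotes its export from the nucleus. In the early embryo the signal is best known for inducing endoderm, and in later divisions the same parts are used again and again, also in neuronal lineages.

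A peak's signal is the value the authors' caller gave it relative to a control. It has no replicate error and an unstated scale, and is used here only within 1 list, where rank 1 is the highest signal. The thresholded list, named as filtered for reproducibility, held 721 peaks with a signal of 33.9 or more. All of them were also in the relaxed pooled list of 12024 peaks, whose lowest signal was 12.3. The relaxed list of each replicate held 30000 peaks, background included. The read depth behind them is unknown. Coordinates are of the ce11 build. A gene window ran from 2 kb upstream of the gene's outermost 5′ end to its 3′ end, and a promoter window from 1000 bp upstream to 200 bp downstream of any of its protein-coding 5′ ends.

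Of the 10 genes, 4 had a thresholded summit in the gene window: mom-1, lit-1, sys-1 and pop-1. Over all protein-coding genes 3.97% did. The members' windows were longer than most (4198 to 24414 bp, median 6929, against a median of 4023 bp over all genes), and among the 9011 genes with a window in that range 5.14% held a thresholded summit. In the promoter window 2 members, sys-1 and lit-1, had one, against 2.65% of all genes. The pooled list put a summit in the gene window of 9 members, all but bar-1, where the background was 41.0% of all genes and 52.9% of those in the same range of window length. It put one in the promoter window of 6 members (lit-1, mom-1, mom-4, mom-5, sys-1 and wrm-1), against 22.4%. The replicate lists are so broad that 71.0% of all genes had a replicate 1 summit and 72.0% a replicate 2 summit in the gene window, and 9 and 10 members did. Since the set was drawn up with the peaks at sys-1 and lit-1 already known, these counts describe it and were not tested. With only the stronger peaks, those at or above the median thresholded signal, mom-1 and pop-1 alone kept a summit in the gene window, against 2.03% of all genes, and no member kept one in the promoter window, against 1.32%.

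**Figure D1:**
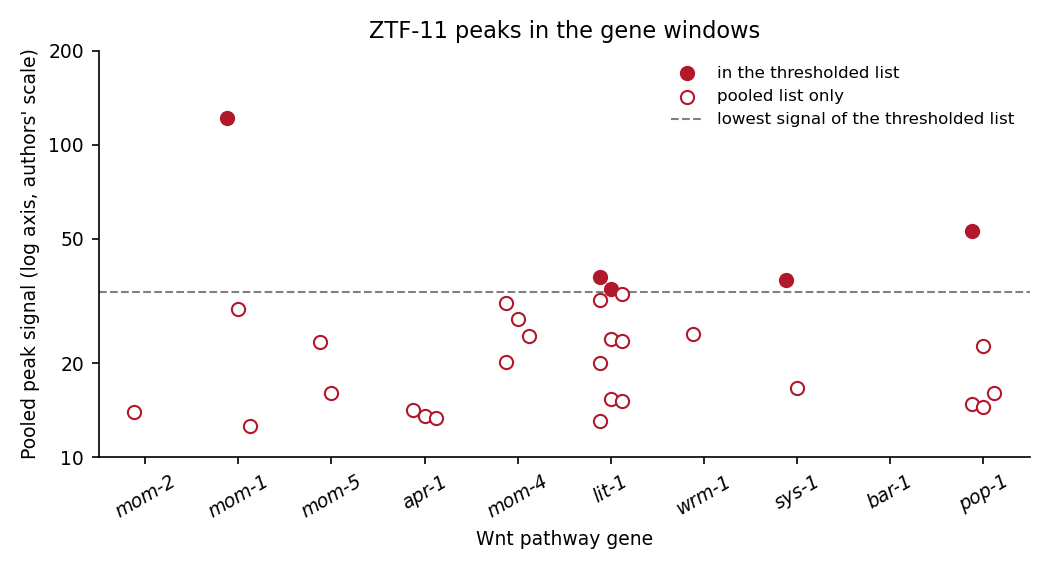
Signal of each pooled peak (log axis, authors' scale) whose summit lay in the gene window of each of the 10 genes; points are spread sideways only to separate them, filled points are also in the thresholded list and the dashed line is its lowest signal, 33.9. The filled points are at mom-1 (122), pop-1 (53.1), lit-1 (37.8 and 34.5) and sys-1 (36.8), and bar-1 has no point.

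The sequences below are the 121 bases centred on 3 summits, shown because they are the strongest site of the set and both thresholded sites of lit-1. They were read from the RefSeq genome of the WBcel235 assembly, which is ce11, on the plus strand, in the direction of transcription of mom-1 and lit-1. Capitals mark the bases within 10 bp of the summit.
mom-1 intron, chrX:6296502-6296622: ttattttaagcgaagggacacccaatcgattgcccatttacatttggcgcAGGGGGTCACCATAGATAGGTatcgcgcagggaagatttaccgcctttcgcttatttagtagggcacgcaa
lit-1 intron, chrIII:13717651-13717771: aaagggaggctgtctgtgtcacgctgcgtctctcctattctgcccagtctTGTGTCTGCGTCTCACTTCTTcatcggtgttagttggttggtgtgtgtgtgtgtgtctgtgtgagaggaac
lit-1 intron, chrIII:13721219-13721339: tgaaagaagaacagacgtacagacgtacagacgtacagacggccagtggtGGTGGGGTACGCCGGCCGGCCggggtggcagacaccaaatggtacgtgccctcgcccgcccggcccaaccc
The first lit-1 sequence runs into a TG repeat, and the second starts with copies of a short acagacgt unit and has a run of CCGG around its summit. In these lit-1 sequences 44.6% and 36.4% of the bases lay in 8-base words that occur more than once within the 121 bases, against 13.2% in the mom-1 intron and a median of 0 over all 698 nuclear thresholded summits.

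mom-1 held the strongest site of the set. Its product is a Porcupine-type acyltransferase, needed for Wnt ligands to be secreted. The peak at chromosome X, 6296384 to 6296739, had a pooled signal of 122 and rank 30. In replicate 1 the overlapping peak had a signal of 66.8 and rank 29, and in replicate 2 a signal of 57.4 and rank 31, with summits 5 bp before and 4 bp after the pooled one. Both libraries thus placed it high and at the same spot. It lay in an intron, 3450 bp into the gene and 1743 bp before its 3′ end, in no promoter window, and the nearest protein-coding 5′ end was that of cest-16, 3380 bp away. No non-coding gene lay within 250 bp, and no 32-base word of the 121 bases around it occurred elsewhere in the nuclear genome. Only 24 of the 19973 genes, mom-1 included, had a thresholded summit of at least that signal in the gene window. There were 3 pooled peaks at mom-1, of which the other two were below the threshold. One of them, not described here, is the only peak that puts mom-1 among the genes with a pooled summit in the promoter window. The weakest, in an intron 1808 bp past the 5′ end, ranked 11343 with a signal of 12.6.

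The remaining genes at the top of the pathway had no thresholded peak. mom-2 encodes the Wnt ligand of the early embryo, and its one pooled peak, in an intron 372 bp past the 5′ end, ranked 8128 of 12024. Its signal was 7.42 (rank 18277) in replicate 1 and 5.24 (rank 18844) in replicate 2, low in both libraries. mom-5 encodes a Frizzled receptor. Its promoter peak, 701 bp upstream, had a signal of 23.4 (rank 1638) with a replicate 2 peak at rank 2067 (summit 182 bp away) and none in replicate 1, where the whole mom-5 window held no summit. A second mom-5 peak, in a coding exon, had a signal of 16.1 and was likewise seen only in replicate 2. apr-1 encodes an APC-related protein that works with the beta-catenins, and its 3 pooled peaks had signals of 14.2, 13.5 and 13.3 (ranks 7734 to 9606). The pair upstream of apr-1 lay in introns of its neighbour K04G2.7.

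The MAP kinase branch differed between its members and, at some peaks of both mom-4 and lit-1, between the libraries. mom-4 encodes a MAP kinase kinase kinase that activates LIT-1. Its 4 pooled peaks had signals of 31.1, 27.7, 24.5 and 20.2, all under the threshold of 33.9. The strongest lay 61 bp past the 5′ end in the 5′ UTR (chromosome I, 9900578 to 9900933), in the promoter windows of both mom-4 and lsl-1. In replicate 2 its overlapping peak had a signal of 29.5 and rank 211, and replicate 1 had no overlapping peak. The next, 1131 bp upstream in an intron of lsl-1, had a replicate 1 peak of signal 23.5 and rank 478 and none in replicate 2. The third, in a coding exon, had rank 713 in replicate 1 and again no peak in replicate 2. The fourth, in the 3′ UTR and 201 bp from the 5′ end of col-64, was found in both (ranks 4409 and 6669). So 3 of the 4 mom-4 sites were seen in a single library, and not always the same one. Farther out, 2471 and 3330 bp upstream of mom-4 and nearest to lsl-1, were 2 thresholded intergenic peaks with signals of 46.7 and 57.9.

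lit-1, the Nemo-like kinase gene, held 10 of the 31 pooled peaks of the set and 2 of its 5 thresholded ones. It also had the longest window, 24.4 kb, and per 10 kb its 4.10 pooled summits were no denser than those of mom-4 (5.61), pop-1 (4.97) or mom-1 (4.17). The annotation gives it 7 distinct 5′ ends, of which 3 lie together at the outer end and 4 are internal, 12054, 15974, 16368 and 17405 bp farther in. Of its 10 pooled summits 8 lay more than 10 kb past the outermost 5′ end, and 4 of them within 1 kb of an internal 5′ end. All 4 internal 5′ ends lie in that same stretch, so some summits there would lie near one wherever they fell. A link between summits and internal 5′ ends was not tested. Nearer the outer end, in an intron, were 2 weak and partly overlapping peaks (15.1 and 13.1), 2556 and 2349 bp in, and no pooled summit lay in the window of the outer 5′ ends.

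The strongest lit-1 peak, at chromosome III, 13721101 to 13721456, had a signal of 37.8 and rank 560. It lay in an intron 19288 bp into the gene, 1883 bp past the last internal 5′ end and 167 bp from the non-coding RNA gene W06F12.7. Replicate 1 had it at signal 28.4 and rank 310 with the same summit, and replicate 2 at 19.2 and rank 530 with the summit 160 bp away. The second, at 13717533 to 13717888, had a signal of 34.5 and rank 690, close to the end of the thresholded list. It lay 254 bp upstream of the 5′ end at 15974 bp, in an intron of the longer transcripts, and ranked 593 in replicate 1 and 709 in replicate 2. Just outside the list were the 2 peaks in front of the first internal 5′ end, 894 and 183 bp upstream of it. The former had a signal of 33.4 (rank 753) and ranked 740 and 1143 in the replicates. The latter had a signal of 31.8 (rank 847), but its replicate ranks were 13876 and 459, so that it rested mostly on replicate 2. The reverse held for the peak 365 bp past the 5′ end at 16368 bp (signal 23.5), which ranked 594 in replicate 1 and 16074 in replicate 2.

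**Figure D2:**
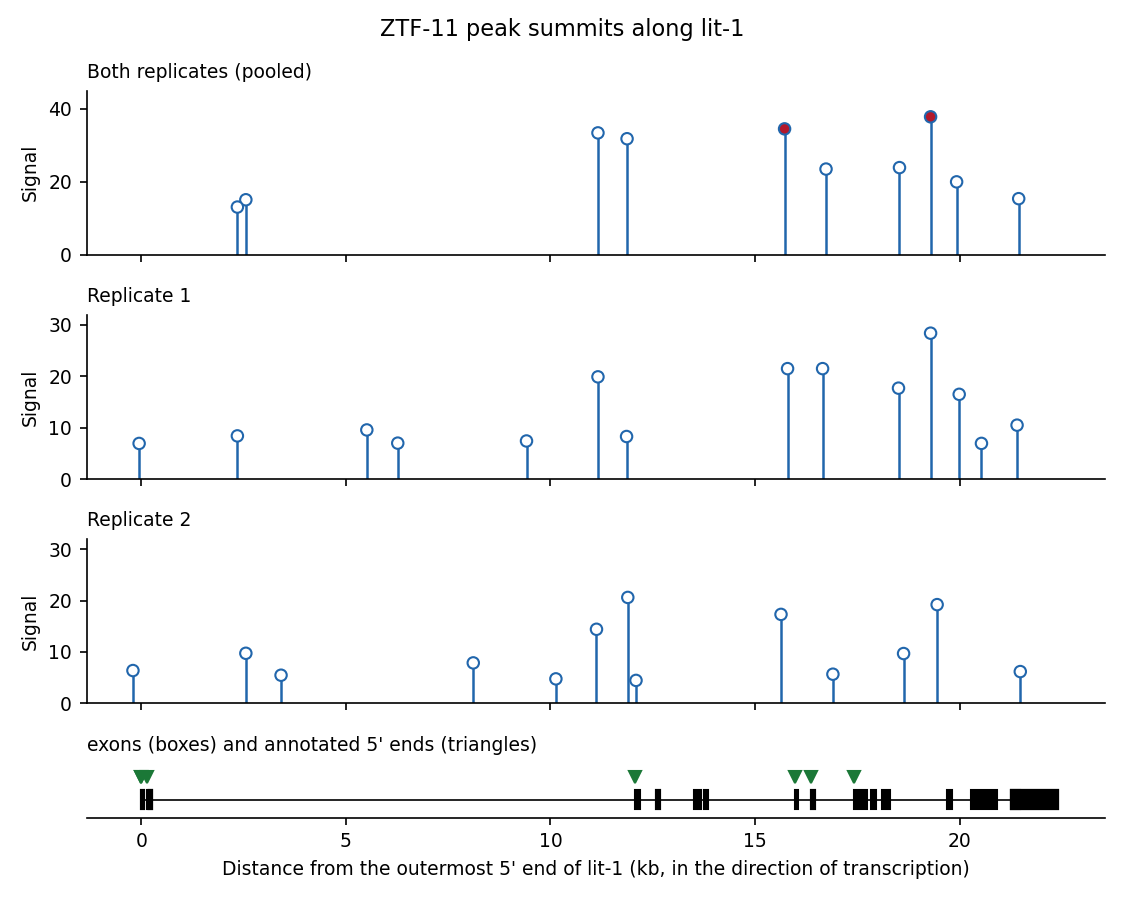
Peak summits along lit-1, as signal (authors' scale of each list) against distance from the outermost 5′ end in kb, in the pooled list and in each replicate, above the exons and annotated 5′ ends; filled points are thresholded. Of the 10 pooled summits 8 lie more than 10 kb in, in the part of the gene that also holds the internal 5′ ends. The filled ones are at 15720 and 19288 bp.

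The beta-catenin genes spanned the whole range, from a thresholded promoter peak to no pooled peak. sys-1, the coactivator gene, had an intergenic peak at chromosome I, 9984955 to 9985310, with a signal of 36.8 and rank 599, 339 bp upstream of its outermost 5′ end. No other protein-coding gene had this summit in its promoter window. It ranked 446 in replicate 1 (signal 24.1, same summit) and 1161 in replicate 2 (14.3), below the 721 strongest peaks of that library. A second intergenic peak, 1089 bp upstream (16.6), was found in replicate 1 only. The third-ranked peak of the whole pooled list (signal 256), at the histone genes his-67 and his-68 and at alg-5, lay 4187 bp upstream of sys-1, outside its window. At the other end of sys-1, a thresholded peak at 9979754 to 9980109 (signal 38.8, rank 531) overlapped the 3′ end. Its summit lay outside the sys-1 window, in the promoter window of eif-3.C, and was not counted for sys-1. mom-5 is 10025 bp from sys-1 on the same chromosome and mom-4 79.2 kb from it, so these genes are near neighbours as well as pathway partners.

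wrm-1, whose product partners LIT-1, had a single pooled peak, 621 bp upstream of its outer 5′ end (chromosome III, 5722051 to 5722406, signal 24.7, rank 1431). It ranked 1431 in replicate 2 too, with a signal of 13.2, but 9751 in replicate 1 with a signal of 9.36. A further peak 2204 bp upstream of wrm-1, just beyond the window, was the last of the thresholded list (signal 33.9, rank 721), 85 bp from the non-coding RNA gene B0336.16, and wrm-1 was its nearest 5′ end. bar-1 encodes the beta-catenin of canonical Wnt signalling, known mostly from larval cells. It had no pooled summit, and each replicate list held 1 summit in a coding exon, at different places and at ranks 22928 and 11600.

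pop-1, the TCF gene on which the pathway ends, had the second strongest peak of the set. At chromosome I, 2831390 to 2831745, it had a signal of 53.1 and rank 273, and ranked 208 in replicate 1 (signal 34.2) and 477 in replicate 2 (20.1). The summit was intergenic, 1257 bp upstream of the 5′ end, and so outside the promoter window of 1000 bp, though pop-1 was the nearest protein-coding 5′ end. It lay inside 2 annotated non-coding RNA genes, W10C8.12 and W10C8.8. The next pop-1 peak, in an intron 1057 bp past the 5′ end, had a signal of 22.7 and ranked 12015 and 1011 in the replicates. The other 3 were weak (14.5 to 16.0), 1 of them in a coding exon with no overlapping peak in either replicate.

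**Figure D3:**
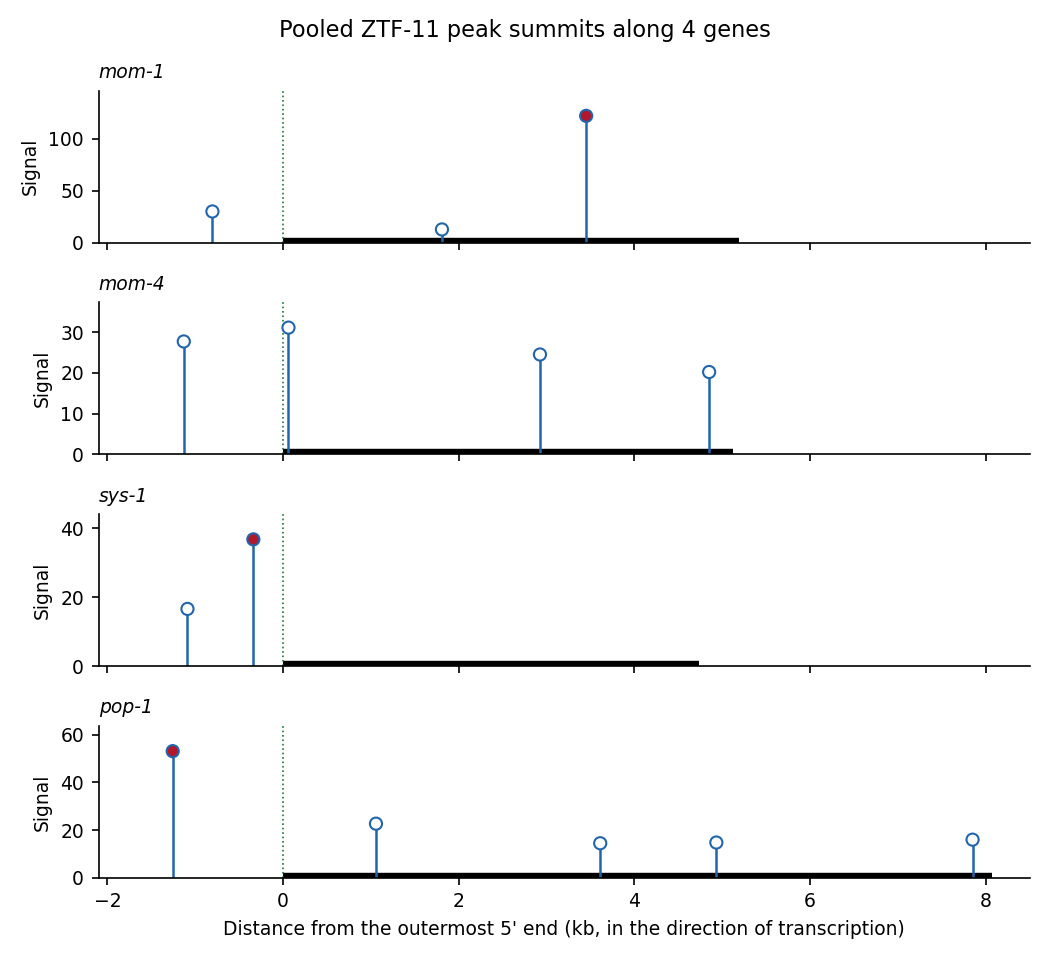
Pooled peak summits along mom-1, mom-4, sys-1 and pop-1, as signal (authors' scale, with an axis of its own for each gene) against distance from the outermost 5′ end in kb; the thick bar is the gene, filled points are thresholded and the dotted line is the 5′ end. The leading peak lies inside mom-1, at the start of mom-4 and upstream of sys-1 and pop-1.

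Across the 10 genes, 9 of the 31 pooled summits lay upstream of the outermost 5′ end and 22 past it. Introns of the gene itself held 14, coding exons 5 and UTRs 3, while of those upstream 6 were intergenic and 3 in introns of a neighbour. All 5 thresholded summits were in introns (3) or intergenic (2). Their 121 bases had a GC content of 47.9% to 65.3%, against 25.6% to 62.0% (median 42.6%) for the other 26. Over all nuclear summits the median GC content was 50.4% in the thresholded list and 38.8% in the pooled list, and the genome has 35.4%. By median, GC content was thus higher at thresholded sites, in the set (52.1% against 42.6%) and in the whole series, though in the set the ranges overlapped. It did not follow signal within the 5, since mom-1, the strongest, and sys-1 both had the lowest value, 47.9%. The part of GC content in the signal was not tested. Summed over the windows, the members had 5.78 thresholded summits per 100 kb, against 0.710 over all gene windows, and 35.8 pooled summits per 100 kb, against 12.2. These densities include the peaks at sys-1 and lit-1, already known when the set was drawn up, and the difference was not tested.

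The thresholded list is named as filtered on reproducibility, but at these genes it was also a cut by signal. The best thresholded peaks of mom-1, pop-1, lit-1 and sys-1 had the same ranks in it as in the pooled list (30, 273, 560 and 599). The strongest member peak outside it had a signal of 33.4, under its lowest signal of 33.9. Each of its 5 peaks at these genes had a match in both libraries, which the making of the list can itself favour. Of the 5, 4 (all but the one at sys-1) were among the 721 strongest of both replicate lists. Of the 31 pooled peaks 19 had an overlapping peak in both libraries, 6 in replicate 1 only, 5 in replicate 2 only and 1 in neither. Neither these counts nor the 4 of 5 were made over all peaks of the lists. They therefore do not show whether agreement at these genes was unusual. Among the 19, the weak pair near the outer end of lit-1 shared its matches. Both overlapped the same replicate 1 peak (rank 13360) and the same replicate 2 peak (rank 3486), with summits 207 bp apart. Of the 51 replicate 1 summits in the members' windows 13 (25.5%, 95% Wilson interval 15.5% to 38.9%) had a replicate 2 summit within 100 bp, against 16.5% over all gene windows, and of the 45 replicate 2 summits 14 (31.1%, 19.5% to 45.7%) had a replicate 1 summit within it, against 16.3%. These intervals cover counting error only. They treat summits as independent, although 14 of the 51 and 13 of the 45 lay at lit-1, and both shares count largely the same pairs. The difference from all gene windows was not tested. With replicate 1 left out, so that the 721 strongest peaks of replicate 2 were used, lit-1, mom-1, mom-4 and pop-1 had a summit in the gene window and sys-1 did not; in the promoter window lit-1 and mom-4 then had one, and the sys-1 call was lost. With replicate 2 left out, all 4 genes named above kept one and mom-4 was added. The summits at mom-4 differed in place between these settings.

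**Figure D4:**
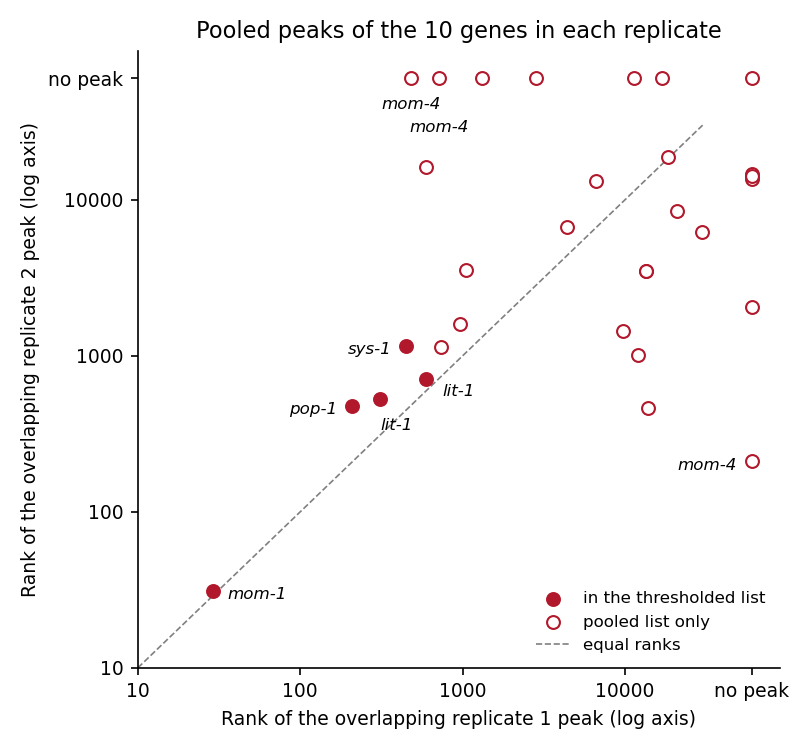
Rank of the strongest overlapping peak in replicate 1 and in replicate 2 (log axes, 1 is the highest signal) for the 31 pooled peaks of the 10 genes; points on the outer edges have no overlapping peak in that library. The thresholded peaks (filled) lie near the line of equal ranks, from mom-1 at ranks 29 and 31 to sys-1 at 446 and 1161, and the labelled mom-4 peaks are on the edges.

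Short motifs were looked up as a description, on both strands and within 150 bp of the summit. AAGTT, the core bound by Myt1 family proteins, was present once each at 3 of the 5 thresholded summits (both at lit-1 and the one at pop-1), and not within 50 bp of any of the 5. Within 50 bp it was also uncommon in general, at 8.31% of all nuclear thresholded summits and 27.7% of pooled ones. Within 150 bp it occurred in 37.1% of all nuclear thresholded windows of that length, 61.8% of pooled ones and 70.3% of the stretches of the same length directly upstream of all genes. The longer AAAGTTT, which contains it, and CTTTGAT, a sequence bound by TCF proteins such as POP-1, were at none of the 5. They occurred in 10.2% and 2.29% of all thresholded windows and in 23.1% and 5.96% of the upstream stretches.

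Among 24 other genes of Wnt signalling 3 had a thresholded summit in the gene window, hmp-2, cam-1 and vang-1. The background was 3.97% of all genes and 5.14% of those in the members' range of window length, which held all 24 windows. hmp-2 encodes the beta-catenin of cell junctions. Its peak (chromosome I, 14737455 to 14737544, signal 91.6, rank 66) lay 1387 bp upstream but only 207 bp from the 5′ end of K05C4.7, the gene whose promoter window it was in, and ranked 48 and 182 in the replicates. cam-1 encodes a Ror-type Wnt receptor, and its intronic peak 1378 bp past the outermost 5′ end (chromosome II, 9308748 to 9309103) had a signal of 53.3 and ranked 341 and 302. vang-1 encodes the Van Gogh protein of planar polarity. Its peak 315 bp upstream (chromosome X, 2885365 to 2885720) had a signal of 53.2, ranked 372 and 301, and lay within the non-coding RNA genes F53B3.10 and F53B3.12. No thresholded summit was found at the other 4 Wnt ligand genes, the Dishevelled genes dsh-1, dsh-2 and mig-5, or the kinase gene gsk-3. Of the 24 genes, 18 had a pooled summit, against 41.0% of all genes and 52.9% of those in that range of window length. Of 11 genes reported as POP-1 targets none had a thresholded summit in the gene window, against 3.97% of all genes. With so few genes, none is near that share. A pooled summit was found at 7 of the 11, against 41.0% of all genes. The most pooled summits were at egl-18, with 12 (6.85 per 10 kb), the strongest with a signal of 24.4 and rank 1478. The strongest pooled peak of these targets was at elt-6 (26.3, rank 1226). The endoderm gene end-1 had a single weak pooled peak (13.3, rank 9714), and end-3, med-1 and med-2 had none. The windows of these 4 genes were 2.52 to 3.95 kb long, below the median of 4023 bp over all genes.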

How the data were processed

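ZTF-11 ChIP-seq peak lists from 2 libraries of mixed-stage embryos were used as the authors deposited them. Peaks were called against a control and filtered by the irreproducible discovery rate, per the deposited listing of files; the sources used do not name the aligner, the peak caller or the cutoff. The signal value of each peak is the authors' own, as is the deposited −log10 q-value (read as such from the column order of the format), which was at most 2.43 for pooled peaks and entered no comparison. Depth is unknown, so single peaks have no counting interval.

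Peaks were ranked by signal within each list. Summits were placed on ce11 with the Ensembl release 115 annotation of WBcel235, which is the same assembly. Mitochondrial peaks and the ce10 lists were left out. One weaker peak of mom-1 is counted but not reported in detail here. A summit is the peak offset in the file. A replicate peak was matched to a pooled peak when they overlapped by at least 1 bp, taking the strongest. The members, the pathway lists and the motifs were chosen with earlier results of these data known, so no test was made, and counts are given beside the share of all protein-coding genes. Named genes were the members, listed genes with a thresholded summit, genes at a member's summits and the members' pooled peaks; further pathway genes and weaker or more distant peaks were named after their values were seen. Alternatives were other windows, peak sets, assignment and overlap rules, and each replicate alone. Window counting was tested on simulated data. Python 3.11.15, pandas 2.3.3, NumPy 2.4.6 and SciPy 1.17.1 were used.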

Additional observations from a re-analysis of the deposited data

How the results depend on the processing

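With peaks at or above the median thresholded signal, members with a summit in the promoter window went from 2 to 0 (all genes, 2.65% to 1.32%) and in the gene window from 4 to 2 (3.97% to 2.03%). With 2 times as many of the strongest pooled peaks, the promoter count was 5 (all genes 4.91%) and that of the 24 other pathway genes in the gene window 9, against 3 (all genes 7.61%). Leaving out a replicate gave 2 in both cases for the promoter window, but not the same genes, since without replicate 1 mom-4 stood in place of sys-1. It gave 4 to 5 for the gene window, 7 to 9 for pooled summits (against 9) and 4 in both cases for the other pathway genes. The genes changed here too. Without replicate 1 the 9 members with a pooled summit included bar-1 and not mom-2. The 4 other pathway genes included lin-17 without replicate 1 and unc-37 without replicate 2. With a gene window from 1 kb upstream the pop-1 peak was not counted (3 members), and from 5 kb upstream mom-4 and wrm-1 were added (6). The share of replicate 1 summits with one of replicate 2 nearby was 25.5% within 100 bp (all summits 16.5%), 15.7% within 50 bp (10.1%), 39.2% within 200 bp (25.4%) and 47.1% by overlap (34.6%), as the distances allow by construction. The motif AAGTT lay at 3 thresholded summits within 150 bp and at 0 within 50 bp, a distance added after the data were seen. For the other changes the cause was not tested. No paired analysis was possible because there is 1 group.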
